A study of Mus musculus with 6 samples.

Results

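The 10 genes described here are 4 markers of neutrophils (S100a8, S100a9, Csf3r and Cxcr2), 2 inflammatory cytokines (Il1b and Tnf), the interleukin-1 receptor antagonist (Il1rn) and 3 chemokines (Cxcl1, Cxcl2 and Ccl2), out of 35082 genes in the liver RNA sequencing data. They were chosen by name, with earlier results of these data known, and no measured value entered the rule. The estimated counts of all transcripts of each gene were summed in each of 6 libraries. All 10 genes had counts, and 8 of them were among the 12497 genes that passed the filter on low counts and were tested. Tnf and Cxcl2 did not pass it. The LKO_HFD group is 3 male mice of the genotype Alb-cre; G3BP1f/f, in which Cre recombinase under the albumin promoter acts in hepatocytes. The WT_HFD group is 3 male mice of the genotype G3BP1f/f without Cre, so both groups carry the floxed alleles, and C57 stands in the library names. Both groups were fed a high-fat diet for 20 weeks from 8 weeks of age, and no liver on another diet was analysed here.

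Libraries held 20899135 to 21750007 estimated counts. G3bp1 itself was not detectably lower in the LKO_HFD libraries (35.2 ± 7.70 CPM, against 39.8 ± 4.69 CPM in WT_HFD libraries, SD, n = 3 each; edgeR log2 difference -0.18, adjusted p = 0.91), but the deleted part is not named in the sources used here, and reads from the rest of the gene or from other cells also count. By library, G3bp1 measured 44.0, 30.0 and 31.5 CPM in LKO_HFD replicates 1 to 3. In WT_HFD replicates 1 to 3 it measured 44.1, 34.8 and 40.5 CPM. LKO_HFD replicates 2 and 3 thus lay below every WT_HFD library, and LKO_HFD replicate 1 did not. The groups are therefore called knockout-labelled and control. Over all tested genes edgeR called 0 higher and 0 lower at an adjusted p of 0.05, with 331 higher and 237 lower at an unadjusted p under 0.05, while DESeq2 called 6 higher and 5 lower (0.0481% and 0.0401% of 12484 genes), none of them among the 8 tested. Levels are given in CPM, counts scaled to a library total of 1000000 after TMM factors. In bulk liver fewer cells of a type and less RNA per cell cannot be told apart.

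Neutrophils are short-lived white blood cells made in bone marrow under granulocyte colony-stimulating factor, whose receptor is encoded by Csf3r. They enter inflamed liver along gradients of the chemokines CXCL1 and CXCL2, which act on the receptor CXCR2, while CCL2 draws monocytes that carry CCR2. IL-1β and TNF, made largely by activated macrophages, raise the transcription of these chemokines through NF-κB, and the IL-1 receptor antagonist occupies the IL-1 receptor without activating it.

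None of the 10 genes was called different between knockout-labelled and control livers. Of the 8 tested genes, 0 passed the adjusted threshold of edgeR, as did 0% of all tested genes in either direction. At an unadjusted p under 0.05 the count was also 0 of 8, beside 2.65% of all tested genes higher and 1.90% lower. The smallest unadjusted p values belonged to Il1rn (0.051), S100a8 (0.054) and S100a9 (0.064), all 3 with a mean lower in the knockout-labelled livers. Their edgeR adjusted p was 0.84. Single animals stood out in each group. Control replicate 3 was the highest control for 6 of the 8 tested genes (29.2% of all tested genes), and knockout-labelled replicate 1 the highest of its group for 7 of 8 (40.1% of all tested genes). Knockout-labelled replicates 2 and 3 had 36.3% and 37.8% of transcripts above 0, against 30.2% to 31.2% in the other libraries. Over all tested genes these replicates were nearest to each other, and knockout-labelled replicate 1 to control replicate 3. The part of this in the results was not tested.

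**Figure D1:**
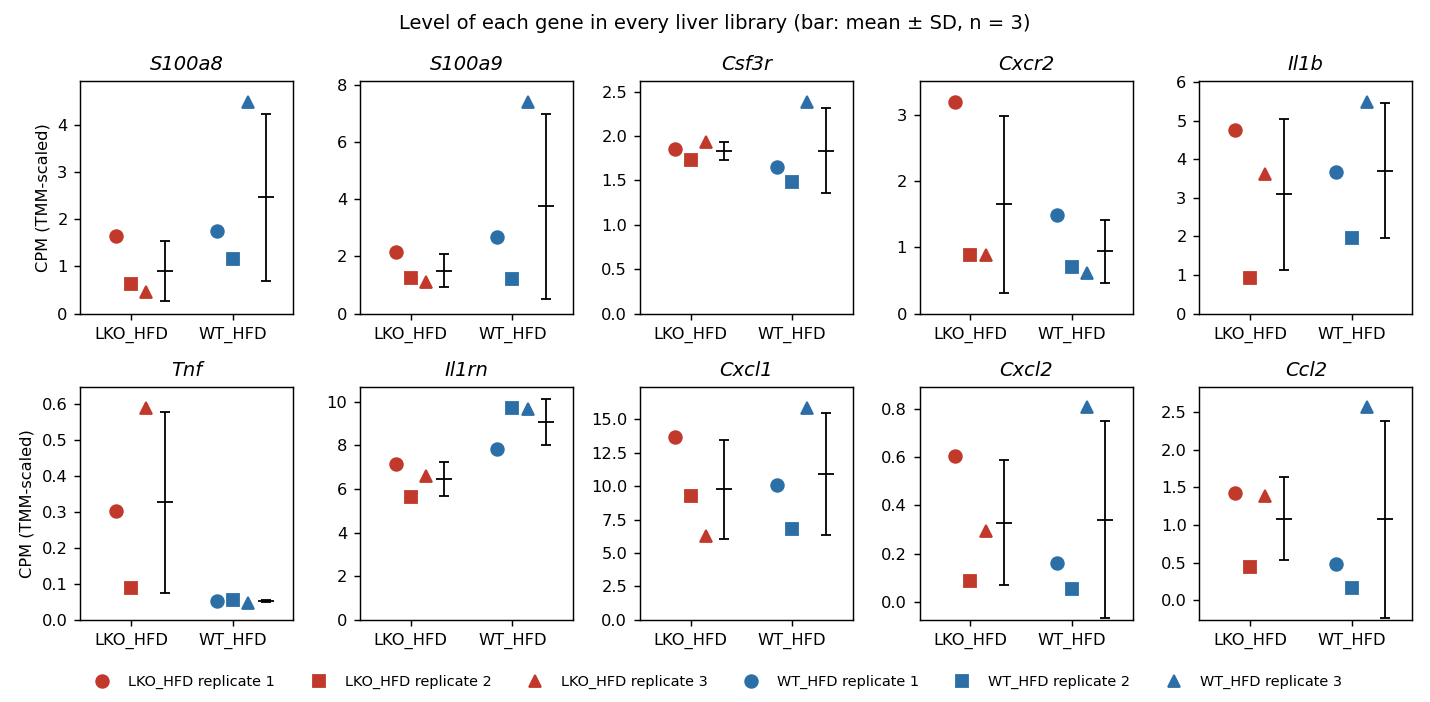
Each panel gives 1 gene, with CPM after TMM scaling (linear axis) for each library of the LKO_HFD (red) and WT_HFD (blue) groups and the mean ± SD of each group (n = 3). Control replicate 3 (blue triangle) is the highest of all 6 libraries for S100a8 and S100a9, knockout-labelled replicate 1 (red circle) is the highest for Cxcr2, and the groups stand apart without overlap for Il1rn and Tnf.

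S100a8 (ENSMUSG00000056054, chromosome 3, 90668978 to 90670035, plus strand, GRCm38) and S100a9 (ENSMUSG00000056071, chromosome 3, 90692632 to 90695721, minus strand) encode the 2 subunits of calprotectin, a calcium- and zinc-binding protein that fills the neutrophil cytosol. The genes are neighbours, 22596 bases apart. Their sequences before the transcription start are shown because the pair varied together across the libraries. These are the 120 bases before the RefSeq start site on GRCm38.p6, read 5′ to 3′ on the gene's strand, with the TATA motif TATAAA in capitals.
S100a8, chr3:90668951-90669070, plus strand: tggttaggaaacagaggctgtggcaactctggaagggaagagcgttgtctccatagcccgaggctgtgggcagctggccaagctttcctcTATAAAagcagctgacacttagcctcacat
S100a9, chr3:90695722-90695841, minus strand: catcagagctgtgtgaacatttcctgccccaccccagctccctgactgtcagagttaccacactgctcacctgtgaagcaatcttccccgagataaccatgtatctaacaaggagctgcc
The RefSeq start of S100a8, 90669071, lies 93 bases downstream of the GENCODE start of the gene given above, so most of the stretch shown, the motif included, is within the gene by GENCODE. For S100a9 the 2 gene starts coincide, at the start of transcript S100a9-202, which held 5.80% of the gene's counts. Transcript S100a9-201, with 94.2%, starts at 90695711. The motif TATAAA lies at -30 to -25 from the RefSeq start site in S100a8, and in S100a9 it begins at the RefSeq start site itself. On either strand it is found in 13.6% of 32851 promoter windows of the same length (250 bases before the start to 50 after).

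S100a8 had 38, 14 and 11 counts (1.64, 0.620 and 0.461 CPM) in knockout-labelled replicates 1 to 3, against 33, 21 and 94 counts (1.76, 1.15 and 4.48 CPM) in control replicates 1 to 3. Control replicate 3 stood far above the other 5 libraries, and knockout-labelled replicate 1 lay between controls 2 and 1, so the groups overlapped. The mean was 0.907 ± 0.640 CPM in knockout-labelled livers and 2.46 ± 1.77 CPM in controls (SD, n = 3 each). The edgeR log2 difference was -1.44 (standard error 0.64), with a 95% interval from -2.91 to 0.03 (adjusted p = 0.84). S100a9 showed the same order at its ends, with 50, 28 and 26 counts (2.16, 1.24 and 1.09 CPM) in knockout-labelled replicates 1 to 3, against 50, 22 and 155 counts (2.66, 1.2 and 7.38 CPM) in control replicates 1 to 3. Here control replicate 2 fell among the knockout-labelled libraries. The S100a9 mean was 1.50 ± 0.578 CPM in knockout-labelled livers and 3.75 ± 3.23 CPM in controls (SD, n = 3 each), a log2 difference of -1.33 (standard error 0.62, edgeR adjusted p = 0.84).

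Control replicate 3 carried much of both differences. Without it the edgeR log2 difference was -0.68 for S100a8 and -0.37 for S100a9, and without knockout-labelled replicate 1 it was -2.19 and -1.69. Both transcripts are short, 486 bases for S100a8, and tested genes of that length deviated as a class by 0.23, -0.46 and -0.52 (log2) in knockout-labelled replicates 1 to 3 and by 0.23, 0.13 and 0.40 in control replicates 1 to 3. The share of mitochondrial counts was 7.57%, 9.19% and 10.2% in knockout-labelled replicates 1 to 3 and 7.40%, 7.64% and 7.21% in control replicates 1 to 3, and its part in the result was not tested. With the trend over length removed, the difference was -1.01 for S100a8 and -0.83 for S100a9. S100a8 had fewer counts than S100a9 in every library, with 0.760, 0.5 and 0.423 S100a8 counts per S100a9 count in knockout-labelled replicates 1 to 3 and 0.660, 0.955 and 0.606 in control replicates 1 to 3.

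The receptors Csf3r and Cxcr2 differed from the calprotectin genes in pattern, although Csf3r too was highest in control replicate 3. Csf3r (ENSMUSG00000028859, chromosome 4, 126024550 to 126044440, plus strand) varied least of the 10 in TMM-scaled CPM, with 43, 39 and 46 counts (1.86, 1.73 and 1.93 CPM) in knockout-labelled replicates 1 to 3, against 31, 27 and 50 counts (1.65, 1.48 and 2.38 CPM) in control replicates 1 to 3. The highest library was 1.61 times the lowest, against 1.72 times for Il1rn, while in the deposited TPM the ratio was 1.87 for Csf3r and 1.45 for Il1rn. The group means were 1.84 ± 0.102 CPM in knockout-labelled livers and 1.84 ± 0.480 CPM in controls (SD, n = 3 each), and the edgeR log2 difference of 0.00 had a 95% interval from -0.74 to 0.73.

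Cxcr2 (ENSMUSG00000026180, chromosome 1, 74153989 to 74161246, plus strand) had 74, 20 and 21 counts (3.19, 0.885 and 0.880 CPM) in knockout-labelled replicates 1 to 3, against 28, 13 and 13 counts (1.49, 0.712 and 0.619 CPM) in control replicates 1 to 3. It peaked in knockout-labelled replicate 1 and was lowest in control replicate 3, the library in which S100a8 and S100a9 peaked. The edgeR log2 difference was 0.81 (standard error 0.62, adjusted p = 0.85), and it was -0.09 without knockout-labelled replicate 1. The S100a9 count per Cxcr2 count was 0.676, 1.40 and 1.24 in knockout-labelled replicates 1 to 3, and 1.79, 1.69 and 11.9 in control replicates 1 to 3. The calprotectin genes and Cxcr2 were therefore highest in different livers.

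**Figure D2:**
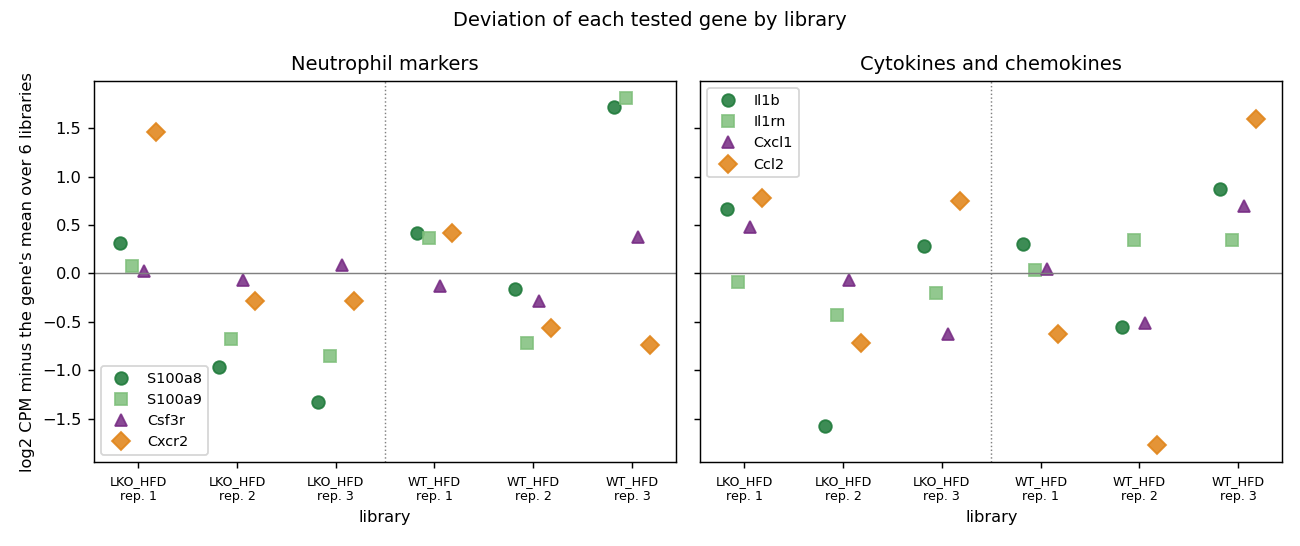
Log2 CPM (prior count 2) of each tested gene minus its own mean over the 6 libraries, for the 4 neutrophil markers (left) and 4 cytokine and chemokine genes (right), with LKO_HFD libraries left of the dotted line and WT_HFD libraries right of it. S100a8 and S100a9 rise to 1.72 and 1.81 in control replicate 3, where Cxcr2 sits at -0.74, and Ccl2 spans from -1.77 to 1.59 within the controls.

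Genes specific to neutrophils had few counts in these livers. Of 50 further genes listed as neutrophil markers, 45 had any count and 22 were tested. The other 5 were at 0 in all 6 libraries (Ctsg, Stfa2, BC100530, Csf3 and Cxcl3), among them Csf3, which encodes granulocyte colony-stimulating factor, and the chemokine gene Cxcl3. A count of 0 allows a level of up to 0.126 to 0.164 CPM, depending on the library. Ly6g, the defining surface marker of mouse neutrophils, had 3, 0 and 0 counts in knockout-labelled replicates 1 to 3, against 1, 1 and 7 in control replicates 1 to 3. Ngp, a protein of secondary granules, had 12, 0 and 3 counts in knockout-labelled replicates 1 to 3, against 25, 3 and 68 in control replicates 1 to 3 (edgeR log2 difference -2.85, standard error 1.14, adjusted p = 0.84). Of the 13 granule genes with a count, 5 were highest in CPM in control replicate 3 (Ngp, Camp, Ltf, Mmp8 and Chil3) and 4 in knockout-labelled replicate 1 (Mpo, Elane, Lcn2 and Padi4), with the rest spread over 3 further libraries.

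The 22 tested genes of that list had 21 log2 differences below 0 and a median of -0.33, beside 48.4% below 0 and a median of 0.01 over all tested genes. Without control replicate 3, 13 of 23 lay below 0, at a median of -0.02 beside 0.04 over all genes. Scaled to library totals alone, the list's median was -0.07 beside 0.27 over all genes, and on the scale of log2(TPM + 0.1) it was 0.04 beside 0.35, so it lay below that of all genes under each scaling. None passed the adjusted threshold. Several of the list are also liver genes, such as Hp, Lrg1, Lcn2 and G0s2. At an unadjusted edgeR p under 0.05, 1 of the 22 was higher and 2 were lower, beside 2.65% and 1.90% of all tested genes. These 3 were Ngp, G0s2 (log2 difference -0.72), a lipolysis inhibitor, and Hdc (1.40), the histamine-forming enzyme. Their number ran from 0 without control replicate 1 to 8 with limma voom. S100a6, the other member of the 4 with the smallest p, had a log2 difference of -1.07 (edgeR adjusted p = 0.84). Of 14 granule genes 3 were tested, all below 0, at a median of -0.39. With 1 library left out, when 4 to 6 of them were tested, the median ran from -1.96 (knockout-labelled replicate 1 left out) to -0.32 (control replicate 1 left out), and with limma voom it was -2.14. Besides Ngp these were Cebpe (-0.39), a granulocyte transcription factor, and Lcn2 (-0.14), which hepatocytes also make and which had 3303, 198 and 587 counts in knockout-labelled replicates 1 to 3, against 712, 737 and 2436 in control replicates 1 to 3.

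Among 11935 other tested genes, the 5 whose centred profile over the 6 libraries lay closest to the mean of S100a8 and S100a9 were Mefv, Pclaf, Ifi27l2a, Osbpl5 and Ube2c, by a root mean square difference of 0.236 to 0.297 (log2). Ifi27l2a, the most abundant of them, measured 8.46, 3.19 and 2.98 CPM in knockout-labelled replicates 1 to 3, against 6.60, 5.53 and 15.8 CPM in control replicates 1 to 3. Csf3r lay farther off at 0.835, with 2443 genes closer, and Cxcr2 at 1.21, with 10216 genes closer.

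Il1b and Tnf, the macrophage cytokines, differed from each other in level and in pattern. Il1b (ENSMUSG00000027398, chromosome 2, 129364570 to 129371139, minus strand) had 110, 21 and 86 counts (4.75, 0.929 and 3.61 CPM) in knockout-labelled replicates 1 to 3, against 69, 36 and 115 counts (3.67, 1.97 and 5.48 CPM) in control replicates 1 to 3. Replicate 2 was the lowest of each group, and the groups overlapped. The edgeR log2 difference was -0.26 (standard error 0.58, adjusted p = 0.95), with a 95% interval from -1.58 to 1.06.

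Tnf (ENSMUSG00000024401, chromosome 17, 35199381 to 35202007, minus strand) had 7, 2 and 14 counts in knockout-labelled replicates 1 to 3, against 1, 1 and 1 in control replicates 1 to 3. Its groups did not overlap, the single such case on the higher side among the 10 genes, beside 4.04% of all genes with a count. On the lower side it was 1 of 10, Il1rn, beside 3.90%. The sums of 23 and 3 counts gave a ratio of 6.39 between knockout-labelled and control livers after scaling, with an exact 95% counting interval from 1.93 to 33.2, which covers counting error only. Without knockout-labelled replicate 3 the ratio was 3.80, with an interval from 0.949 to 21.8. An exact two-sided permutation test of log2(CPM + 1) over the 6 libraries gave p = 0.1, the smallest that 3 against 3 allows. With no filter on low counts, the edgeR adjusted p of Tnf was 0.84. All 3 controls lay under the floor of 3 counts, as did knockout-labelled replicate 2, so the level of Tnf was hardly measurable at this depth.

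The antagonist Il1rn (ENSMUSG00000026981, chromosome 2, 24336853 to 24351494, plus strand), which hepatocytes also release in the acute phase response, varied least of the cytokine genes. It had 166, 127 and 157 counts (7.16, 5.62 and 6.58 CPM) in knockout-labelled replicates 1 to 3, against 147, 177 and 203 counts (7.83, 9.69 and 9.67 CPM) in control replicates 1 to 3. Every knockout-labelled library lay below every control in CPM. Il1rn was the 1 gene of the 8 tested without overlap on the lower side, beside 4.55% of all tested genes, and 0 of 8 were on the higher side, beside 4.79%. The mean was 6.45 ± 0.779 CPM in knockout-labelled livers and 9.06 ± 1.07 CPM in controls (SD, n = 3 each). The edgeR log2 difference was -0.49 (standard error 0.22), with a 95% interval from -0.98 to 0.00 (adjusted p = 0.84). The TMM factors were 1.081, 1.069 and 1.139 in knockout-labelled replicates 1 to 3 and 0.9013, 0.8418 and 1.001 in control replicates 1 to 3. Scaled to library totals alone, the difference was -0.23 and the groups overlapped, at 7.74, 6.0 and 7.49 CPM in knockout-labelled replicates 1 to 3 and 7.05, 8.16 and 9.68 CPM in control replicates 1 to 3. In the deposited TPM it was -0.12, on the scale of log2(TPM + 0.1). The median of all tested genes was 0.01 with TMM factors, 0.27 with library totals and 0.35 on that TPM scale. Set against these medians, the difference of Il1rn was -0.50, -0.50 and -0.47.

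Il1rn is transcribed from alternative first exons, the downstream one encoding a signal peptide and giving the secreted form, and the upstream one giving an intracellular form. Transcript Il1rn-201 starts at 24345310 on chromosome 2 and has 178 codons, whereas Il1rn-204 starts at 24336853 and has 159 codons. Il1rn-201 held 40.5%, 69.2% and 58.2% of the gene's estimated counts in knockout-labelled replicates 1 to 3, against 54.2%, 69.1% and 64.8% in control replicates 1 to 3. Il1rn-204 held 54.6%, 22.5% and 28.3% in knockout-labelled replicates 1 to 3, against 37.0%, 23.2% and 28.8% in control replicates 1 to 3. The upstream transcript was the more abundant of the pair only in knockout-labelled replicate 1, and control replicate 1 came next. The division of reads between transcripts is an estimate, and no error for it is given here.

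**Figure D3:**
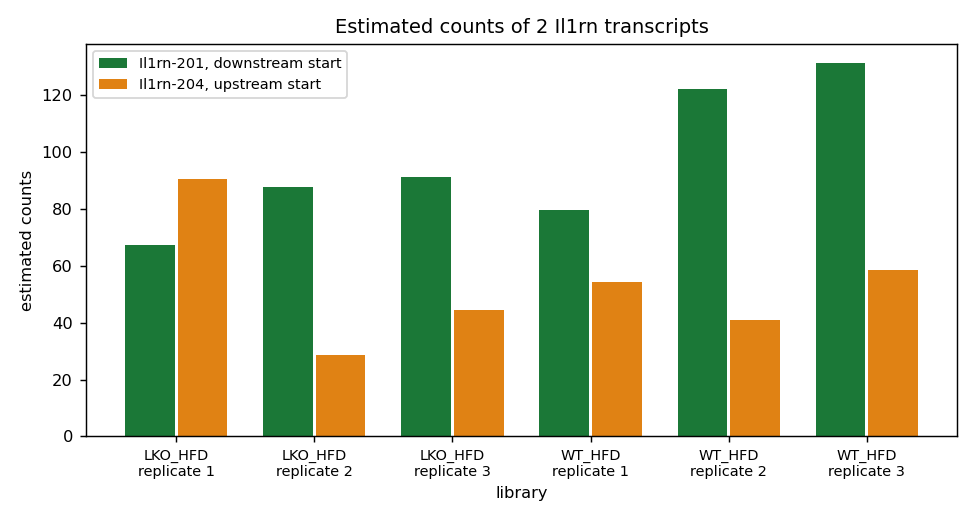
Bars give the estimated counts of the transcripts Il1rn-201 (green, downstream start) and Il1rn-204 (orange, upstream start) in each library, LKO_HFD left and WT_HFD right. Il1rn-204 exceeds Il1rn-201 only in knockout-labelled replicate 1, with 90.7 against 67.3 counts.

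The antagonist exceeded its competitor in every library by counts, with 1.51, 6.05 and 1.83 Il1rn counts per Il1b count in knockout-labelled replicates 1 to 3 and 2.13, 4.92 and 1.77 in control replicates 1 to 3. Per length, the ratio of deposited TPM was 0.935, 3.48 and 1.41 in knockout-labelled replicates 1 to 3 and 1.66, 3.72 and 1.23 in control replicates 1 to 3. By that measure Il1b stood slightly above Il1rn in knockout-labelled replicate 1. Replicate 2 had the highest ratio of each group, where Il1b was lowest.

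Receptors and further genes of both cytokine pathways did not pass the threshold. Il1r1, the signalling IL-1 receptor, had a log2 difference of -0.03, and Il1r2, the decoy receptor that neutrophils carry, had 2, 0 and 0 counts in knockout-labelled replicates 1 to 3 against 3, 2 and 5 in control replicates 1 to 3. Of 30 genes listed for IL-1 signalling 28 were found in the annotation and 23 were tested, of which 9 lay above 0 with a median of -0.05. Besides Il1rn the smallest p values belonged to Irak4 (0.49), a kinase of the receptor complex, Naip2 (0.70), an inflammasome sensor, and Il1a (0.61). The TNF receptors Tnfrsf1a and Tnfrsf1b had log2 differences of 0.39 and -0.19. Of 21 genes of TNF signalling 19 were tested, with 10 above 0 and a median of 0.01, and Tab2 (0.28), Casp8 (-0.28) and Traf1 (0.55) came next to Tnfrsf1a by p. With library totals 18 of 23 and 17 of 19 of these genes lay above 0, beside 78.9% of all tested genes.

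Genes of NF-κB, through which both cytokines signal, lay above 0 more often than not. Of 29 listed genes 26 were tested, of which 20 had a log2 difference above 0 with a median of 0.17, beside 51.6% above 0 over all tested genes. Ikbkg, the regulatory subunit of the IκB kinase, had 1019, 908 and 1085 counts in knockout-labelled replicates 1 to 3, against 540, 503 and 557 in control replicates 1 to 3. Its groups did not overlap, and its log2 difference was 0.65 (standard error 0.17, unadjusted p = 0.0048, edgeR adjusted p = 0.84). Of the 26 tested genes 2 were free of overlap on the higher side and 1 on the lower, beside 4.79% and 4.55% of all tested genes. Nfkb1 (0.36) and Irf1 (0.72) lay above 0 and the inhibitor Nfkbib (-0.53) below it, and none passed the threshold. Without control replicate 2, 13 of 26 lay above 0 with a median of 0.00, and without knockout-labelled replicate 3, 16 of 26 with a median of 0.04. With library totals 21 of 26 lay above 0, beside 78.9% of all tested genes. The list's median was then 0.44, beside 0.27 over all genes. The IL-6 family and colony-stimulating factors had 13 of 21 tested genes above 0 with a median of 0.08, led by p by Csf1 (0.50), Il4ra (0.35), Stat3 (0.37) and Lbp (0.25).

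Among the chemokines Cxcl1 was the most abundant, and Cxcl2 and Ccl2 varied most. Cxcl1 (ENSMUSG00000029380, chromosome 5, 90891241 to 90893115, plus strand) and Cxcl2 (ENSMUSG00000058427, chromosome 5, 90903871 to 90905938, plus strand) lie 10755 bases apart and encode closely related ligands of CXCR2. Their promoters are shown because both carry the same NF-κB motif, GGGAATTTCC, given in capitals in the 120 bases before the RefSeq start site (GRCm38.p6, 5′ to 3′), which lies 4 bases downstream of the GENCODE start of the gene in Cxcl1 and 28 in Cxcl2.
Cxcl1, chr5:90891125-90891244, plus strand: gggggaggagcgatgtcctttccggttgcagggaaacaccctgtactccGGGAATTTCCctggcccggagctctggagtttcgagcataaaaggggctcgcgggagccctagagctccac
Cxcl2, chr5:90903779-90903898, plus strand: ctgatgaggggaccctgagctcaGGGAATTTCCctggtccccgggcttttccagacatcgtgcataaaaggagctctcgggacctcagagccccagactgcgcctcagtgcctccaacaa
Counted from the RefSeq start, the motif lies at -71 to -62 in Cxcl1 and at -97 to -88 in Cxcl2. Its letters were taken from the consensus match in the Cxcl1 promoter, so its presence in Cxcl1 was fixed in advance. On either strand it is found in 0.088% of the 32851 promoter windows. Among the 9 genes of the 10 that matched the table, Ccl2 being the other, it is in Cxcl1 and Cxcl2. The broader NF-κB consensus, which contains these letters and overlaps the same sites, is in 4.5% of the windows and in no further member.

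Cxcl1 had 317, 210 and 150 counts (13.7, 9.29 and 6.29 CPM) in knockout-labelled replicates 1 to 3, against 189, 124 and 332 counts (10.1, 6.79 and 15.8 CPM) in control replicates 1 to 3. Control replicate 3 and knockout-labelled replicate 1 were the highest, and the groups overlapped. The edgeR log2 difference was -0.16 (standard error 0.38, adjusted p = 0.95). With library totals it was 0.06, which is -0.22 against the median of all genes, beside -0.17 with TMM factors. The retained-intron transcript Cxcl1-202 held 14.6%, 31.3% and 26.4% of the gene's estimated counts in knockout-labelled replicates 1 to 3, and 18.9%, 18.4% and 20.3% in control replicates 1 to 3. Cxcl2 had 14, 2 and 7 counts in knockout-labelled replicates 1 to 3, against 3, 1 and 17 in control replicates 1 to 3. It was highest in the same libraries as Cxcl1, which had 22.6 counts per Cxcl2 count in knockout-labelled replicate 1 and 19.5 in control replicate 3. Its sums of 23 and 21 counts gave a ratio of 0.913 between knockout-labelled and control livers, with an exact 95% counting interval from 0.483 to 1.73. Without control replicate 3 the ratio was 3.06 (1.05 to 12.2), and without knockout-labelled replicate 1 it was 0.535 (0.216 to 1.22). An exact two-sided permutation test of log2(CPM + 1) gave p = 1, over the same 6 libraries.

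Ccl2 (ENSMUSG00000035385, chromosome 11, 82035571 to 82037453, plus strand), the monocyte attractant, had 33, 10 and 33 counts (1.42, 0.443 and 1.38 CPM) in knockout-labelled replicates 1 to 3, against 9, 3 and 54 counts (0.479, 0.164 and 2.57 CPM) in control replicates 1 to 3. The highest control exceeded the lowest 15.7-fold, so that the group means, 1.08 ± 0.555 CPM in knockout-labelled livers and 1.07 ± 1.31 CPM in controls (SD, n = 3 each), were close only through control replicate 3. The edgeR log2 difference was 0.00 with a 95% interval from -1.87 to 1.87 (adjusted p = 1.00). Without control replicate 3 it was 1.74, with an unadjusted p of 0.052 and an edgeR adjusted p of 0.97. Ccr2, the receptor of CCL2, had 37, 23 and 32 counts in knockout-labelled replicates 1 to 3, against 13, 30 and 53 in control replicates 1 to 3 (log2 difference -0.30).

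**Figure D4:**
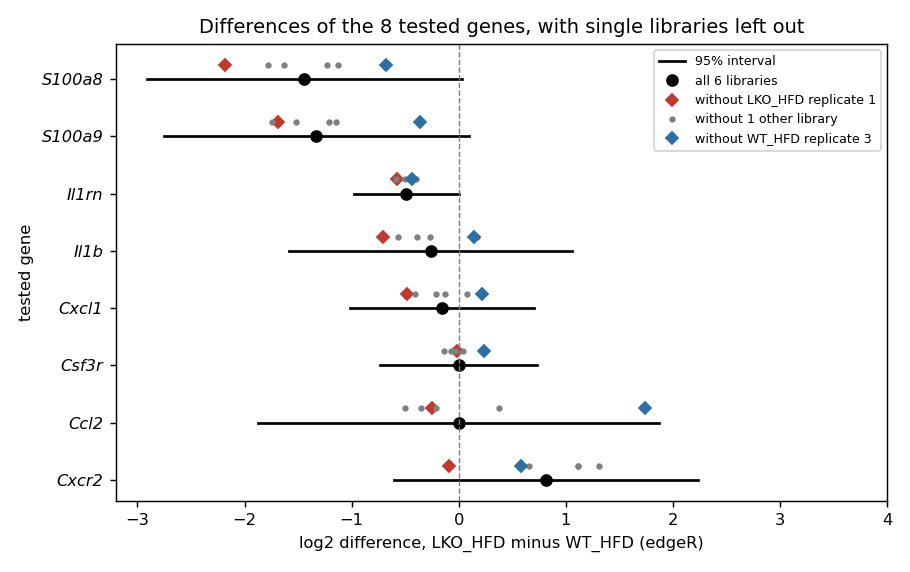
The edgeR log2 differences (LKO_HFD minus WT_HFD) of the 8 tested genes, with black points and lines for all 6 libraries and their 95% intervals, and smaller marks above for fits with 1 library left out. Every interval includes 0, the marks without control replicate 3 (blue) lie at -0.68 for S100a8 and 1.74 for Ccl2, and the mark without knockout-labelled replicate 1 (red) lies at -0.09 for Cxcr2.

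Further chemokine genes did not pass the threshold either. Of 21 CXC chemokines and receptors 14 were tested, with 6 above 0 and a median of -0.16. The smallest p values belonged to Ppbp (-1.44), a platelet chemokine whose groups did not overlap, Cxcl13 (-1.58), a B cell attractant, and Cxcl11 (0.96) and Cxcl9 (0.96), which interferon induces. Cxcl5, another CXCR2 ligand, had at most 3 counts in any library, and Cxcr1 at most 4. Of 25 CC chemokines and receptors 14 were tested, of which 12 lay below 0 with a median of -0.35. Ccl24 (-1.01) and Ackr2 (0.74), a scavenging receptor, were free of overlap, and Ccl6 (-1.12) and Ccl27a (-0.42) followed by p. Free of overlap were thus 1 of 14 tested CC genes on each side, and 1 of 14 CXC genes on the lower side. Over all tested genes the share was 4.79% on the higher side and 4.55% on the lower side. Without control replicate 3 the medians of the CXC and CC lists were 0.29 and -0.09, beside 0.04 over all genes. With library totals they were 0.07 and -0.10, beside 0.27.

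Levels of different genes were compared per length, in the deposited TPM. From high to low, the mean over the 6 libraries was 9.95 for Cxcl1, 7.52 for S100a9, 5.27 for S100a8, 4.06 for Il1rn, 2.54 for Il1b, 1.44 for Ccl2, 0.490 for Csf3r, 0.356 for Cxcr2, 0.266 for Cxcl2 and 0.118 for Tnf. The ranges of all 9 pairs of neighbours in that order overlapped. Within single libraries, the upper gene of a pair exceeded the lower in 5 or 6 of 6 libraries, except that S100a8 exceeded Il1rn in 3. In S100a8 the deposited TPM was 5.45, 2.38 and 1.88 in knockout-labelled replicates 1 to 3, against 4.53, 3.19 and 14.2 in control replicates 1 to 3. All 10 genes together had 36.8, 20.9 and 23.1 CPM in knockout-labelled replicates 1 to 3, against 29.8, 23.3 and 49.3 CPM in control replicates 1 to 3. S100a8 and S100a9 made up 24.1% of these counts in control replicate 3 and 6.72% to 14.8% in the other libraries.

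The summed levels of other blood and immune cell markers peaked more often in control replicate 3 than in any other library. The 16 markers of Kupffer cells and macrophages, all detected, summed to 483, 367 and 444 CPM in knockout-labelled replicates 1 to 3, against 333, 530 and 962 CPM in control replicates 1 to 3. The log2 differences of all 16 lay below 0, at a median of -0.61, and the smallest p values were those of Folr2 (-0.84), C1qa (-0.64), Cd5l (-0.62) and Cd68 (-0.63). Without control replicate 3, 9 of 16 lay above 0, at a median of 0.06. The 20 markers of T and NK cells, all with counts, summed to 33.01, 8.01 and 18.4 CPM in knockout-labelled replicates 1 to 3, against 18.3, 19.7 and 48.9 CPM in control replicates 1 to 3. Control replicate 3 was highest for both lists, as it was for the calprotectin genes. It was also highest for markers of lipid-associated macrophages (692 CPM) and platelets (35.3 CPM). For dendritic cells it was highest by little (156 CPM, beside 150 CPM in knockout-labelled replicate 1). The summed CPM of the monocyte markers was lowest in control replicate 3, at 451, and highest in knockout-labelled replicate 2, at 637. A sum weighs abundant genes most, so it need not show how most of these markers behaved. Of 12 tested monocyte markers 4 lay above 0, at a median of -0.30. Without control replicate 3 it was 8 of 12, at a median of 0.19. B and plasma cell markers peaked instead in knockout-labelled replicate 1, at 264 CPM, with 23.6 and 27.0 CPM in replicates 2 and 3 and 103, 207 and 67.0 CPM in control replicates 1 to 3. Erythroid markers peaked in control replicate 1, at 1680 CPM. Those of eosinophils, basophils and mast cells peaked in knockout-labelled replicate 2, at 3.14 CPM. No gene of these lists passed the threshold, and the part of these cells in the differences above was not tested.

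Of T and NK cells 12 of 14 tested markers lay below 0 (median -0.51), and of B and plasma cells 3 of 9 (0.19), beside 48.4% of all tested genes. Of the other cell type lists, 12 of 12 tested markers of lipid-associated macrophages lay below 0 (median -0.49), as did 6 of 6 of erythroid cells (-0.95), 8 of 12 of monocytes (-0.30), 7 of 10 of dendritic cells (-0.06) and 4 of 5 of platelets (-0.39). Of structural and parenchymal cells, 5 of 12 tested markers of sinusoidal endothelium lay below 0 (0.11), 5 of 12 of stellate cells (0.05), 3 of 4 of cholangiocytes (-0.47) and 8 of 14 of hepatocytes (-0.14). Single libraries turned several of these medians. Without control replicate 3 the median was 0.19 for monocytes, 0.13 for dendritic cells, 0.03 for T and NK cells and -0.05 for lipid-associated macrophages. Without knockout-labelled replicate 1 it was -0.62 for B and plasma cells. It was -0.29 for stellate cells without control replicate 2, 0.12 for hepatocytes without knockout-labelled replicate 3 and -0.02 for sinusoidal endothelium without knockout-labelled replicate 2. Eosinophils, basophils and mast cells left 1 tested marker, Kit (-0.04), with 3 of 13 markers at 0 in all libraries.

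**Figure D5:**
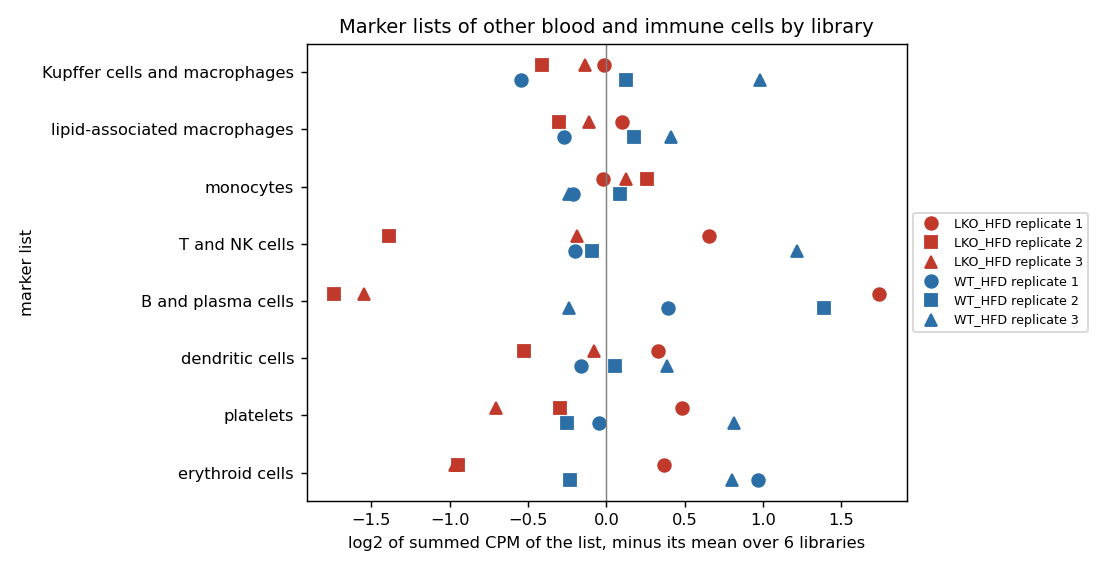
For each list of marker genes, points give the log2 of its summed CPM in each library minus the list's mean over the 6 libraries, LKO_HFD (red, upper) and WT_HFD (blue, lower). Control replicate 3 (blue triangle) is the rightmost point for Kupffer cells and macrophages (962 CPM) and for T and NK cells (48.9 CPM). It is also the rightmost for lipid-associated macrophages, dendritic cells and platelets. Knockout-labelled replicate 1 (red circle) is the rightmost for B and plasma cells, knockout-labelled replicate 2 for monocytes and control replicate 1 for erythroid cells.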

How the data were processed

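Each deposited file holds estimated counts, TPM, length and effective length for 115221 transcripts of 1 liver library in Salmon's column layout, per the file headers. The quantifier's version, options and transcriptome are not given in the sources available here. The submitters' processing notes name Bowtie2 2.2.5, RSEM 1.2.8, DESeq and GRCm38 without a role. The deposited estimated counts are unscaled, and the deposited TPM are scaled to transcript length and to 1000000 within a library. For transcripts longer than 600 bases, length minus effective length had a median of 250.0 in knockout-labelled replicate 1, and of 241.9 to 262.3 in the other libraries.

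With GENCODE M21, 113664 transcript identifiers matched a gene without their version, and 1557 did not and were left out (0.216% to 0.268% of counts). Counts were summed per gene and rounded. Without stated use of strand, overlapping genes cannot be told apart. Genes were filtered with filterByExpr (minimum count 10), scaled with TMM factors (0.842 to 1.14) and tested, two-sided, with edgeR 4.0.16 (quasi-likelihood; R 4.3.3), with Benjamini-Hochberg adjustment over all tested genes. Standard errors are the absolute log2 difference over the square root of F. One alternative removed each library's loess trend over length (span 0.5, degree 2). Others used DESeq2 1.42.0, limma 3.58.1 and the choices given under the dependence on processing. Restriction to protein-coding transcripts was added after seeing the data. The tests were tested on simulated data with known changes, and the outcome is not given here.

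All 10 members are named. Of each gene list, up to 4 tested genes with the smallest p are named, and partners of the members may be named besides. The members, lists and tests were chosen with earlier results of these data known. Counts of a list are descriptions with no test. The design text calls the mice biological replicates. Counting intervals and floors of 3 counts cover counting error only.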

Additional observations from a re-analysis of the deposited data

How the results depend on the processing

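Over all genes edgeR called 0 higher and 0 lower, DESeq2 called 6 and 5, and leaving out 1 library gave 0 to 2 higher and 0 to 1 lower. The number of the 10 genes with an unadjusted p under 0.05 was 0, against 2 with DESeq2 and 3 with limma voom with sample weights. It was 3 with no filter on low counts, where Tnf is tested, 1 with the trend over transcript length removed, and 0 to 2 with 1 library left out. None of the 10 had an adjusted p under 0.05 in any of these fits. The log2 differences of S100a8 (-1.997 to -0.83), S100a9 (-1.49 to -0.57) and Il1rn (-0.63 to -0.10) stayed below 0 under the 9 alternatives, and with 1 library left out they ran from -2.19 to -0.68, -1.75 to -0.37 and -0.59 to -0.40. Tnf and Cxcl2 were not tested in the main fit. Their values are therefore differences of mean log2(CPM + 1), except in TPM and, with no filter, in edgeR. At their low levels the pseudocount of 1 shrinks such differences, so they are not comparable with the edgeR differences of the other genes. The value of Tnf stayed above 0 in every fit that gave a value. Tnf and Cxcl2 have none under limma voom, the block and the length trend. Library totals turned the sign of Csf3r (0.24), Cxcl1 (0.059) and Ccl2 (0.19), and removal of the length trend that of Cxcl1 (0.043) and Ccl2 (0.39). Deposited TPM with a pseudocount of 0.1 turned Csf3r (0.30), Il1b (0.11), Cxcl1 (0.17) and Ccl2 (0.86), and with a pseudocount of 1 the same genes (0.11, 0.10, 0.15 and 0.32). With no filter the edgeR log2 difference was -0.086 for Cxcl2 and 2.52 for Tnf. These scalings also moved the median of all tested genes, to 0.27, 0.35 and 0.22 from 0.01. Set against it, Csf3r, Il1b and Cxcl1 lay below 0 with TMM factors and all 3 of them, and Ccl2 was at -0.08 with library totals and at 0.51 and 0.10 in TPM. The cause of the other turns was not tested. With 1 library left out the ranges were -0.14 to 0.24 for Csf3r, -0.0905 to 1.31 for Cxcr2 and -0.71 to 0.17 for Il1b. They were -0.49 to 0.21 for Cxcl1 and -0.50 to 1.74 for Ccl2. For Cxcl2 the difference of mean log2(CPM + 1) ran from -0.15 to 0.25, while its ratio of summed counts ran from 0.535 to 3.06. The replicate number as a block also gave 0 calls, and turned Csf3r (0.023) and Ccl2 (0.48). Across genes, the deviations of same-numbered libraries had correlations of 0.20, 0.28 and -0.15. Not every knockout-labelled library correlated best with its own number. The labels give a number and no pairing, and these correlations cannot exclude a pairing. Restriction to protein-coding transcripts turned no sign. Depth limits Tnf and Cxcl2 most, with 1 to 17 counts a library.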
